A study of Mus musculus with 8 samples.

Results

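Immunoglobulin light chain V segments are the gene pieces from which the variable part of an antibody light chain is built. They were chosen here as the genes of the count table whose symbol starts with Igkv (kappa) or Iglv (lambda) and that held at least 10 counts over the 8 libraries, which gave 76 segments (73 Igkv and 3 Iglv) of 42256 genes in the table. The table listed 106 light chain V segments in all, of which 18 had 1 to 9 counts and 12 had 0. Just inside the minimum lay Igkv8-16 with 11 counts and Igkv4-51 with 13, and just outside it Igkv4-69 and Igkv7-33 with 8 each. All 76 segments are annotated as V genes, none as a pseudogene, in the GENCODE annotation of GRCm38.

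RNA was sequenced from flash-frozen kidneys of 8 adult male mice (strain 129S1/Sv x C57BL/6, mixed), 4 labelled CDH11+/+ and 4 labelled CDH11-/-. CDH11 is cadherin-11, an adhesion protein of mesenchymal cells. According to the labels every mouse in both groups had received aristolochic acid, a plant nephrotoxin that injures the proximal tubule, at 3 mg/kg daily for 5 days, and was killed 2 weeks after the last dose. The series is titled for a different model (Unx/AngII), whereas its sample labels and design text describe aristolochic acid, and the latter are used here. No uninjured group entered the comparison, so each difference is between injured kidneys. The labels give the genotype as CDH11+/+ or CDH11-/- alone, with no allele, promoter or Cre named.

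A developing B cell joins a V segment to a J segment by recombination, and the joined exon is then spliced to a constant gene, Igkc for kappa or an Iglc gene for lambda. Each B cell generally keeps a single productive light chain, and its clonal descendants carry the same V segment, so the V segments in a tissue's RNA reflect which lymphocytes it holds. Antibody-secreting plasma cells carry far more immunoglobulin RNA than resting B cells, and they can enter the kidney during inflammation. In RNA from whole tissue, fewer cells of a type and less RNA per cell cannot be told apart.

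The kappa segments lie on chromosome 6 between positions 67555497 and 70704177 (GRCm38, the assembly that mm10 names), 25 on the plus strand and 48 on the minus strand, and the lambda segments lie on the minus strand of chromosome 16 between 19085017 and 19260859. Each is a short gene with a leader exon and a V exon, and their transcripts as annotated are 338 to 501 bases long. Many are near copies of a neighbour. Over the coding bases, 15 of the 76 were at least 97% identical to the closest other light chain V segment, with a median of 95.3% over all 76. In 14 segments over 50% of the 50-base windows also occurred in another segment, and in 18 no window did. How the authors assigned reads that match several segments is not given in the sources, so the counts of near copies are uncertain.

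The 3 pairs below are printed because the 3 segments that passed the test of the labels are the first of each pair, and the second is a close relative from which their reads have to be told apart. The sequences run along the coding strand to the 3′ end of the V exon, from GENCODE M21 transcripts of GRCm38, and capitals mark the bases at which the members of a pair differ. Igkv1-110 (chr6:68270968-68271267, plus strand) and Igkv1-117 (chr6:68121528-68121827, plus strand) differ at 10 of 300 bases. Igkv10-96 (chr6:68631963-68632260, minus strand) and Igkv10-94 (chr6:68704508-68704805, minus strand) differ at 16 of 298, as do Igkv6-15 (chr6:70406469-70406766, minus strand) and Igkv6-23 (chr6:70260409-70260706, minus strand).
Igkv1-110: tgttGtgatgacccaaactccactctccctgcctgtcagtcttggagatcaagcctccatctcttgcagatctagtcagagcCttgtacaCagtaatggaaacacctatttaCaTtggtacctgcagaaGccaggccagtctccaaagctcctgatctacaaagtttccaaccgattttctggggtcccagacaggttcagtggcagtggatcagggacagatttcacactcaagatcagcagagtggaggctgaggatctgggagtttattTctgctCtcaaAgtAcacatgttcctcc
Igkv1-117: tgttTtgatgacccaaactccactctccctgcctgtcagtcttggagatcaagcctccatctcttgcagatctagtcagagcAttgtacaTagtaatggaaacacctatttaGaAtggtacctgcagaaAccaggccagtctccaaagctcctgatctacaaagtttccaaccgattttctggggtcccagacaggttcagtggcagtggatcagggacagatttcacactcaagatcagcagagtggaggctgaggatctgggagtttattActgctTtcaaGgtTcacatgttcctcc
Igkv10-96: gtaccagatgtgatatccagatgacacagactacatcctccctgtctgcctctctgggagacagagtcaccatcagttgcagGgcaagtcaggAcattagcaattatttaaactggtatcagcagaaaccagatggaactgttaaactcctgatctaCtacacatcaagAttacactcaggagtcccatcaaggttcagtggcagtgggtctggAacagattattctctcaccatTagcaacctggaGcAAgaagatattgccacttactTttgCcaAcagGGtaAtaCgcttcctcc
Igkv10-94: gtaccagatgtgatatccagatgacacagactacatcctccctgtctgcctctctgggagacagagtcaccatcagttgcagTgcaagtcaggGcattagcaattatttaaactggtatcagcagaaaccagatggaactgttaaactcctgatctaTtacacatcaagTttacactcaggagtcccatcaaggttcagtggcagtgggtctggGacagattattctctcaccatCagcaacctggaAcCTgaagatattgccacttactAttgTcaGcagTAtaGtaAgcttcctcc
Igkv6-15: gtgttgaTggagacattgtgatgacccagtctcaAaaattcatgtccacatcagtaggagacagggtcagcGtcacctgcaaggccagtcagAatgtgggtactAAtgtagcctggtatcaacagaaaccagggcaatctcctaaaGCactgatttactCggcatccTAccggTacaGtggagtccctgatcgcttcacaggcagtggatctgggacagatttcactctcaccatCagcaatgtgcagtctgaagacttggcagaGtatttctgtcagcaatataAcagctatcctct
Igkv6-23: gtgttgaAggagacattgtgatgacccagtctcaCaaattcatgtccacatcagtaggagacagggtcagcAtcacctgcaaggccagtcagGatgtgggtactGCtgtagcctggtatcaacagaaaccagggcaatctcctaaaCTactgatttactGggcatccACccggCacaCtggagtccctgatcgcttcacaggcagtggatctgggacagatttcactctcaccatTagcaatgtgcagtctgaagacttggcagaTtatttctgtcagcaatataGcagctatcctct

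The libraries held 10675309 to 18539479 counts, and levels are given as CPM (counts scaled to a common library size, by the trimmed mean of M-values). Cdh11 itself, the labelled gene, did not lie lower in the libraries labelled CDH11-/-. Its level was 75.6, 58.0, 61.7 and 59.0 CPM in the libraries labelled CDH11+/+ and 89.9, 91.3, 112.5 and 117.2 CPM in those labelled CDH11-/-. The difference was 0.69 ± 0.11 (log2, SE) with a Benjamini-Hochberg adjusted p of 0.0243 in the edgeR quasi-likelihood test, higher in the libraries labelled CDH11-/-. The counts over the whole gene do not show which exons the knockout leaves. Whether the labels of the groups are right was not tested. Every direction below follows the labels and would reverse if they had been exchanged. Libraries are named by label and replicate, in that order within each list of values. On the first principal component of the genes tested (33.4% of variance) the labels did not overlap, at -39.6 to -2.54 for CDH11+/+ against 7.68 to 30.6. CDH11+/+ replicate 2 was the lowest there. CDH11+/+ replicate 1 stood apart from the rest on the second component (22.6%, 41.0 against -26.1 to 9.92).

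The summed light chain V level was high in every library labelled CDH11-/- and ranged from near 0 to moderate in those labelled CDH11+/+. Counts over the 76 segments were 103, 49, 1627 and 856 in the libraries labelled CDH11+/+ and 4549, 4962, 5979 and 2914 in those labelled CDH11-/-. The summed levels were 9.50, 3.72, 128.7 and 66.0 CPM against 305.5, 320.8, 315.6 and 220.7 CPM. All 4 libraries labelled CDH11-/- lay above all 4 labelled CDH11+/+, and 87.5% of the 21039 V counts came from them. The means were 52.0 ± 58.4 CPM and 290.7 ± 47.1 CPM (SD, n = 4 each), a ratio of 5.59. The ratio was 11.0 without CDH11+/+ replicate 3 and 4.27 to 6.14 without any other library. The spread within the CDH11+/+ label was as large as its mean, since replicates 1 and 2 held far fewer V counts than replicates 3 and 4.

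**Figure D1:**
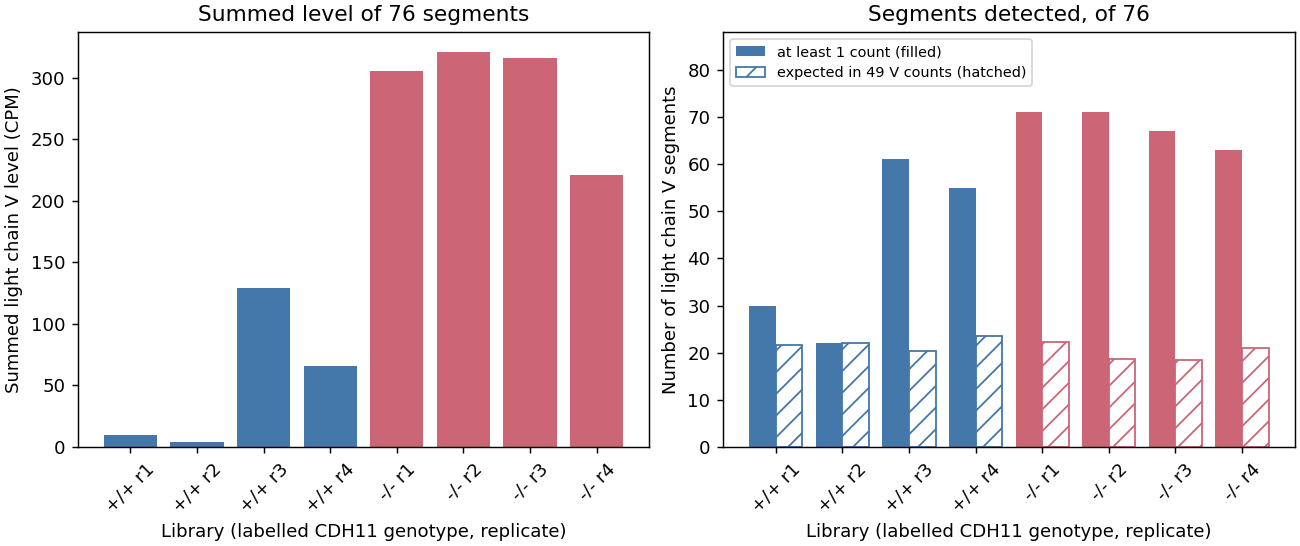
Left, summed level of the 76 light chain V segments in CPM in each library, blue for the CDH11+/+ label and red for CDH11-/-. Right, the number of segments with at least 1 count (filled) and the number expected when every library is reduced to 49 V counts (hatched). The libraries labelled CDH11-/- sit between 220.7 and 320.8 CPM, all above the others, while the hatched bars lie between 18.5 and 23.6 in all 8 libraries.

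More segments were present in the libraries labelled CDH11-/-. At least 1 count was found for 30, 22, 61 and 55 segments under the CDH11+/+ label and for 71, 71, 67 and 63 under CDH11-/-, means of 42.0 ± 18.9 and 68.0 ± 3.83 (SD, n = 4 each). The 2 groups did not overlap, although the highest CDH11+/+ library and the lowest CDH11-/- library were only 61 and 63. With every library reduced to the smallest total, 40.9 and 66.2 segments were expected on average, so the depth of the libraries made little difference to these numbers. With a minimum of 10 counts for a segment to be called present, the means were 14.5 and 45.8.

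At an equal number of V counts, a comparison chosen after seeing the data, the labels did not separate. Reduced to 49 light chain V counts each, the number in the smallest library, the libraries labelled CDH11+/+ held an expected 21.6, 22.0, 20.3 and 23.6 segments and those labelled CDH11-/- held 22.2, 18.6, 18.5 and 20.9. The means were 21.9 ± 1.35 and 20.1 ± 1.82 (SD, n = 4 each), and the ranges overlapped. With 49 counts mostly the common segments are drawn, so a difference among rarer ones could be missed. Only 10 segments had counts in all 8 libraries, among them Igkv1-110, Igkv10-96, Igkv6-15 and Iglv1. A further measure of presence was the set of segments seen in every library of a label, which held 54 segments for CDH11-/- and 10 for CDH11+/+. CDH11+/+ replicate 2, with 49 V counts, held only 22 segments, so the CDH11+/+ set could not exceed 22.

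**Figure D2:**
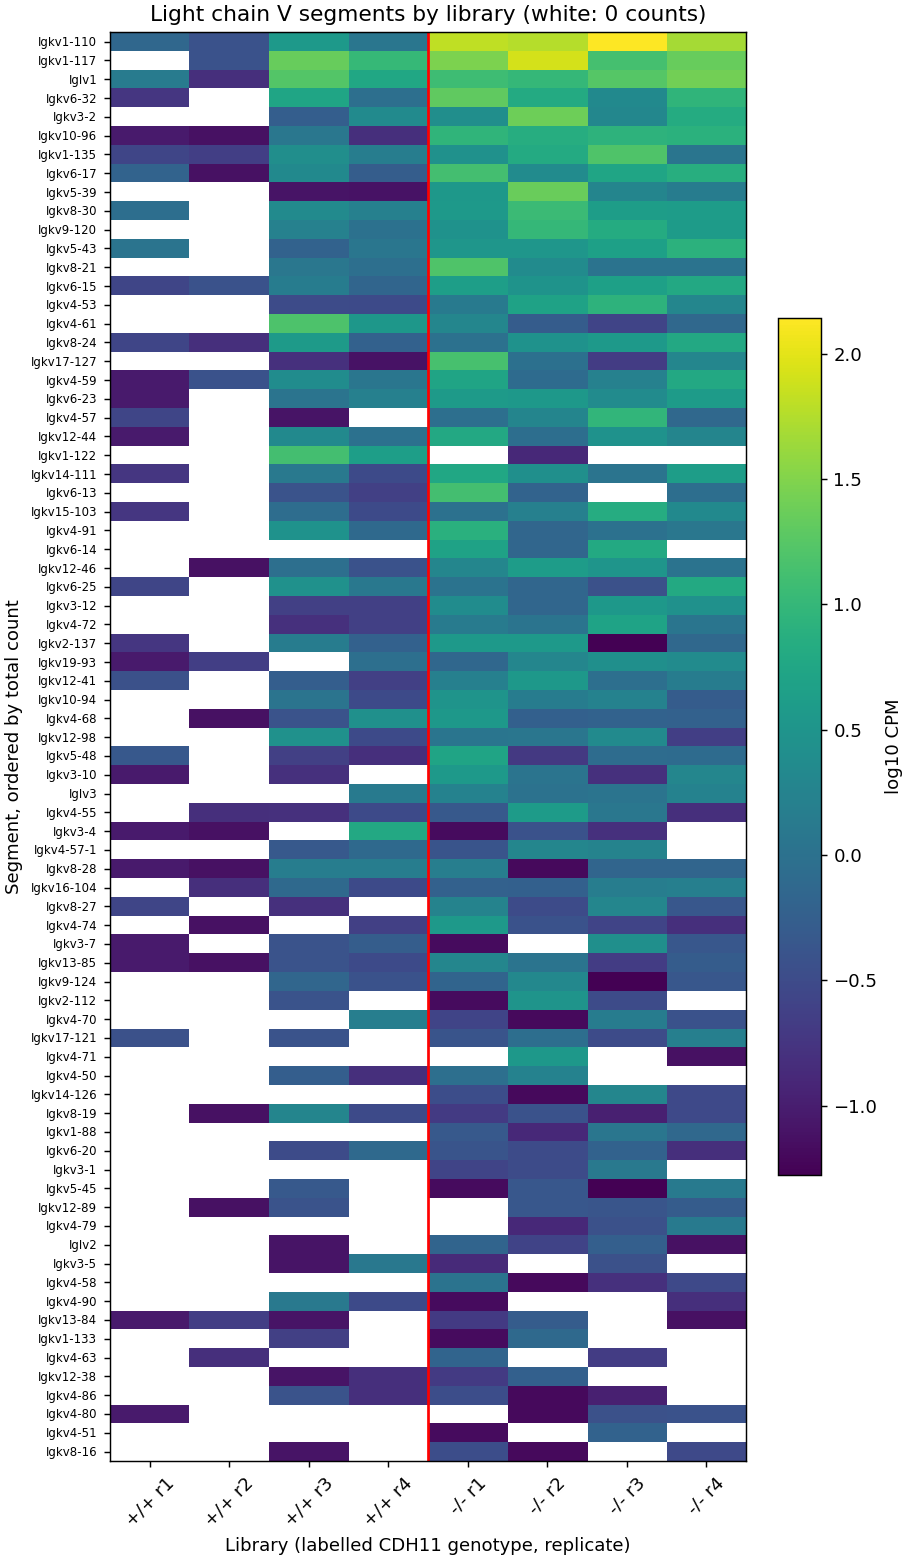
Level of each of the 76 light chain V segments (rows, ordered by total count) in each of the 8 libraries (columns), as log10 CPM, with white for 0 counts and a red line between the labels. White cells number 46, 54, 15 and 21 in the libraries labelled CDH11+/+ and 5, 5, 9 and 13 in those labelled CDH11-/-.

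Most segments were higher on average under the CDH11-/- label. The mean level was higher there for 68 of 76 segments, beside 48.3% of all genes with at least 10 counts. For 22 of 76 segments all 4 libraries labelled CDH11-/- lay above all 4 labelled CDH11+/+, beside 3.28% of all such genes, and for 0 of 76 they all lay below, beside 3.46%. The 22 included Igkv1-110, Igkv10-96, Igkv6-15, Igkv6-17, Igkv5-39 and Igkv8-30. These segments share the same cells and libraries and are not independent of each other. The minimum of 10 counts over 8 libraries also admits segments through the libraries labelled CDH11-/- alone. That leans these numbers toward higher values there. Jchain and Igkc also lay higher in all 4 libraries labelled CDH11-/- but did not pass the test, with values given further on.

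The per-gene test gave far fewer calls than these counts. The edgeR filter on low counts passed 33 of 76 segments, and segments that are low under CDH11+/+ pass it only through the CDH11-/- libraries, so the tested set leans toward higher values there. Of the 33, 3 rose and 0 fell in the edgeR quasi-likelihood test at a Benjamini-Hochberg adjusted p under 0.05, beside 0.372% of all 15852 genes tested that rose and 0.347% that fell. At an unadjusted p under 0.05 stood 20 of the 33, beside 14.1% of all genes. Of the same 33, DESeq2 called 14 and limma-voom with quality weights 9, while 1.39% and 2.04% of all genes rose by these tools. DESeq2 called another 7 segments that the edgeR filter had removed, 21 of the 57 to which it gave an adjusted p. Without its filter on low counts edgeR called 5 of 76 (0.458% of all genes rose), and each of these lists included the same 3. The median log2 fold change of the 33 was 2.56, beside -0.01 for all genes tested.

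Igkv1-110 was the most abundant light chain V segment, with 24.8% of all V counts and 98.8 CPM per kilobase of transcript on average over the 8 libraries. Its level was 0.738, 0.380, 3.80 and 1.16 CPM under CDH11+/+ and 65.3, 58.4, 139.0 and 48.1 CPM under CDH11-/-. Every library labelled CDH11-/- lay more than 10 times above every one labelled CDH11+/+, and CDH11-/- replicate 3 was the highest. Igkv1-110 rose by 5.66 ± 0.67 (log2, SE) with an adjusted p of 0.0275 (edgeR quasi-likelihood test, Benjamini-Hochberg). The call was lost in 5 of 15 alternatives, each of which left out 1 library (CDH11+/+ replicate 2 or 4, or CDH11-/- replicate 1, 2 or 4), with adjusted p-values from 1.93e-11 to 0.122 over all 15.

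Igkv10-96 held nearly the same level in all 4 libraries labelled CDH11-/-. Its level was 0.0923, 0.0760, 1.19 and 0.154 CPM under CDH11+/+ and 9.27, 7.18, 8.71 and 8.18 CPM under CDH11-/-. The groups were far apart, and CDH11+/+ replicate 3 was the highest of its label. Igkv10-96 rose by 4.42 ± 0.53 (log2, SE) with an adjusted p of 0.00932 (edgeR quasi-likelihood test, Benjamini-Hochberg). Its coefficient of variation over the libraries labelled CDH11-/- was 10.7%, the lowest of the 33 tested segments, whose median was 69.6% and highest 141.3% (Igkv8-21). The call was lost in 1 of 15 alternatives, without CDH11+/+ replicate 4, and the adjusted p ranged from 6.92e-06 to 0.0592. Its closest relative in sequence was Igkv10-94, 95.4% identical and printed above.

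Igkv6-15 was lower in abundance and also steady. Its level was 0.277, 0.380, 1.42 and 0.694 CPM under CDH11+/+ and 4.30, 3.04, 4.59 and 6.14 CPM under CDH11-/-. The groups did not overlap, and the lowest library labelled CDH11-/- was replicate 2. Igkv6-15 rose by 2.67 ± 0.41 (log2, SE) with an adjusted p of 0.0183 (edgeR quasi-likelihood test, Benjamini-Hochberg). The call was lost in 4 of 15 alternatives, without CDH11+/+ replicate 2 or 4 or without CDH11-/- replicate 1 or 3, and the adjusted p ranged from 3.59e-07 to 0.0972. Its relative Igkv6-23, 94.5% identical, had 0.0923, 0, 1.11 and 1.62 CPM against 3.83, 3.56, 2.38 and 4.01 CPM, also with no overlap and with an adjusted p of 0.217 by the same test (named for its sequence, after its values were seen).

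**Figure D3:**
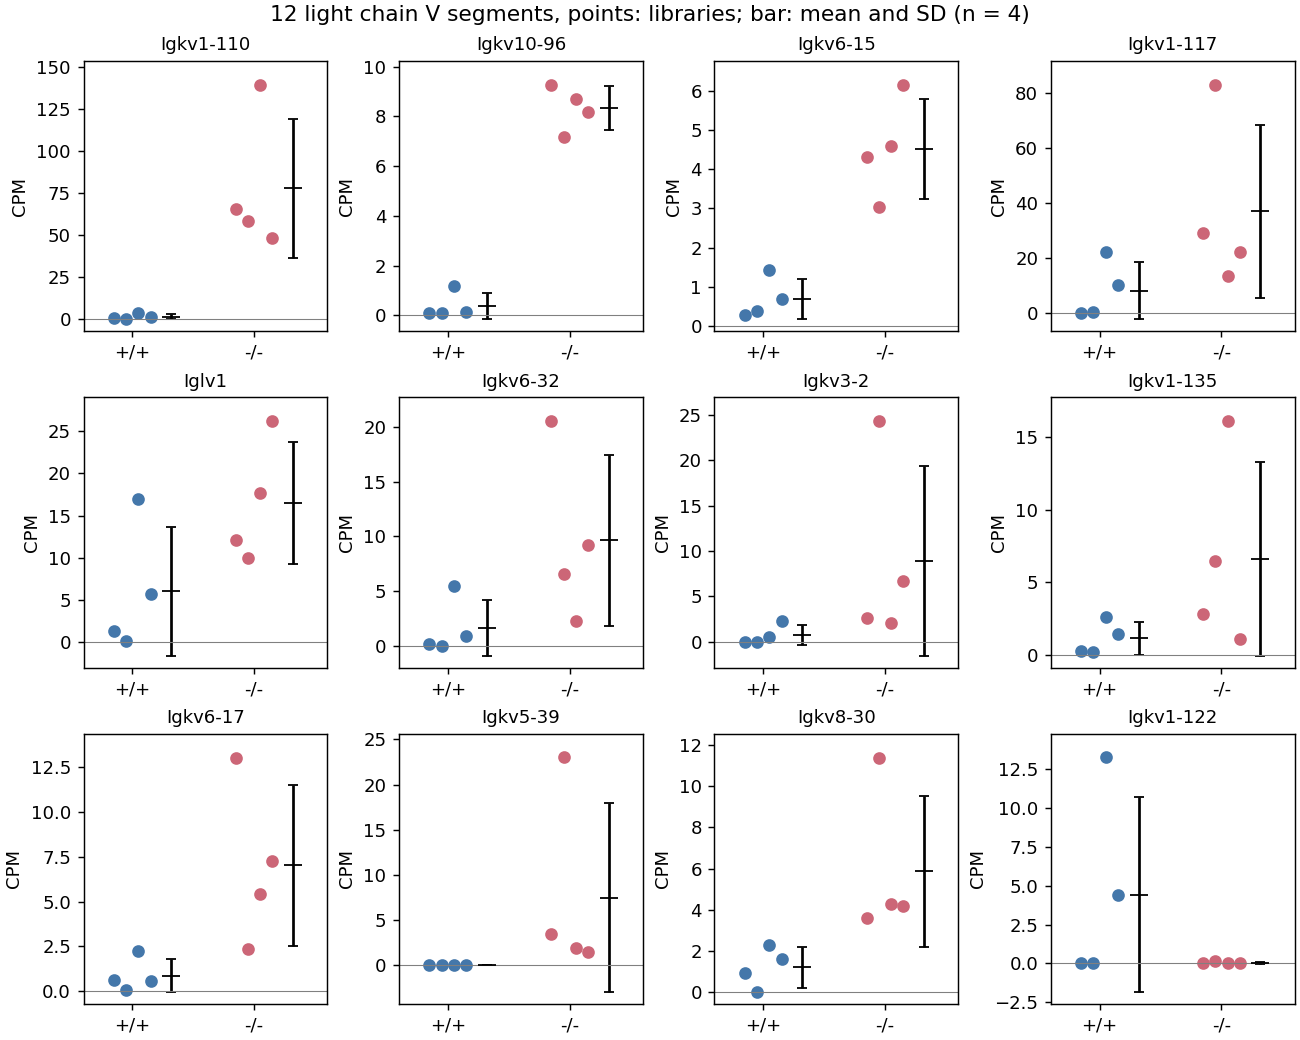
Level in CPM of 12 light chain V segments, each point a library and each bar the mean and SD of 4 libraries, by CDH11 label. Igkv1-110, Igkv10-96 and Igkv6-15 separate the labels, while Igkv1-117 and Iglv1 overlap and Igkv1-122 is high in 2 libraries labelled CDH11+/+.

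Igkv1-117, second in total counts and 97.2% identical to Igkv1-110, did not pass the test. Its level was 0, 0.380, 22.1 and 10.3 CPM under CDH11+/+ and 29.3, 82.9, 13.5 and 22.2 CPM under CDH11-/-. CDH11+/+ replicate 3 lay above CDH11-/- replicate 3, so the groups overlapped. The difference was 2.16 ± 1.15 (log2, SE) with an adjusted p of 0.462 (edgeR quasi-likelihood test). Of the 50-base windows of Igkv1-110, 44.2% also occur in another V segment. Summed, the pair stood at 0.738, 0.760, 25.9 and 11.4 CPM against 94.6, 141.3, 152.5 and 70.3 CPM, with no overlap, a sum that does not depend on how reads were split between the 2.

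The other abundant kappa segments were high in different libraries. Igkv6-32 stood at 0.185, 0, 5.46 and 0.925 CPM against 20.6, 6.59, 2.22 and 9.17 CPM, overlapping, with a log2 difference of 2.52 ± 1.16. Igkv3-2 stood at 0, 0, 0.554 and 2.31 CPM against 2.62, 24.4, 2.01 and 6.74 CPM, high mainly in CDH11-/- replicate 2. Igkv1-135 was highest in CDH11-/- replicate 3 (16.05 CPM) and lower in CDH11-/- replicate 4 (1.14 CPM) than in 2 libraries labelled CDH11+/+. None of the 3 passed, with adjusted p-values of 0.395, 0.301 and 0.337 (edgeR quasi-likelihood test).

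Igkv6-17, Igkv5-39 and Igkv8-30 did not overlap between labels and still did not pass. Igkv6-17 stood at 0.646, 0.0760, 2.22 and 0.540 CPM against 13.03, 2.33, 5.44 and 7.27 CPM, with an adjusted p of 0.165 (edgeR quasi-likelihood test). Igkv5-39 was at 0, 0, 0.0791 and 0.0771 CPM, 2 counts in all, against 3.49, 23.1, 1.90 and 1.44 CPM. CDH11-/- replicate 2 held most of its counts, and its difference of 7.25 ± 1.77 (log2, SE) had an adjusted p of 0.151, which became 0.00803 without that library. Igkv8-30 was likewise highest in CDH11-/- replicate 2 (11.4 CPM against 3.63 to 4.28 CPM in the other libraries of its label), with an adjusted p of 0.240. Igkv4-59, tied for the most abundant segment of CDH11+/+ replicate 2 at 5 counts, stood at 0.0923, 0.380, 2.45 and 1.16 CPM against 5.24, 0.840, 1.69 and 6.21 CPM, overlapping, with an adjusted p of 0.424.

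The lambda light chain is the less used light chain of the mouse. Its 3 segments held 6.90% of the V counts, mostly from Iglv1. Iglv1 stood at 1.38, 0.152, 16.9 and 5.71 CPM against 12.2, 10.02, 17.6 and 26.2 CPM, overlapping, with a log2 difference of 1.43 ± 0.95 and an adjusted p of 0.560 (edgeR quasi-likelihood test). An antisense gene on the opposite strand, 2010309G21Rik, overlaps Iglv1, and the sources do not say whether strand entered the counting, so their reads may not have been told apart. Iglv3 stood at 0, 0, 0 and 1.31 CPM against 1.75, 1.03, 1.11 and 1.74 CPM, overlapping through CDH11+/+ replicate 4 alone. Its log2 difference was 2.01 ± 0.95 with an adjusted p of 0.385 by that test. Without that library it was 7.32 ± 0.90 with an adjusted p of 0.0391 by the same test. The other libraries labelled CDH11+/+ held 0 counts, so 7.32 is not a measured size of the difference. Iglv2, 96.9% identical to Iglv1, had 1 count in 1 library labelled CDH11+/+ and was at 0 in the other 3, and stood at 0.672, 0.259, 0.581 and 0.0757 CPM under CDH11-/-. It did not pass the filter on low counts.

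The lambda share of V counts was 14.6%, 4.08%, 13.2% and 10.6% under CDH11+/+ and 4.77%, 3.53%, 6.12% and 12.7% under CDH11-/-. The means were 10.6% ± 4.66 and 6.78% ± 4.09 (SD, n = 4 each), a difference within the spread of the libraries. With 49 and 103 V counts the shares of CDH11+/+ replicates 2 and 1 are loose, with exact 95% binomial intervals of 0.498% to 14.0% and 8.39% to 22.9%. Intervals for the deeper libraries were narrower, as in CDH11-/- replicate 4 with 11.5% to 14.0%. They cover counting error only.

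The segment that led each library differed. Iglv1 led CDH11+/+ replicate 1 with 14.6% of its V counts, and Igkv1-117 led CDH11+/+ replicates 3 and 4 with 17.1% and 15.5%. In CDH11+/+ replicate 2, Igkv1-110, Igkv1-117, Igkv6-15 and Igkv4-59 tied at 5 counts, 10.2% each. Igkv1-110 led CDH11-/- replicates 1, 3 and 4 with 21.4%, 44.0% and 21.8%, and Igkv1-117 led CDH11-/- replicate 2 with 25.8%. The leading share averaged 14.4% ± 2.97 under CDH11+/+ and 28.3% ± 10.7 under CDH11-/- (SD, n = 4 each), with no overlap of the values. With 103 and 49 V counts, the leading shares of CDH11+/+ replicates 1 and 2 are loose. Their exact 95% binomial intervals, 8.39% to 22.9% and 3.40% to 22.2%, reach past the 21.4% of CDH11-/- replicate 1. The share of Igkv1-110 alone was 7.77%, 10.2%, 2.95% and 1.75% against 21.4%, 18.2%, 44.0% and 21.8%, again with no overlap of the values. In CDH11+/+ replicate 2 that share rests on 5 counts, and its interval of 3.40% to 22.2% reaches past 18.2%. Without Igkv1-110, the other 75 segments summed to 50.5 ± 56.9 CPM and 213.0 ± 45.2 CPM.

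**Figure D4:**
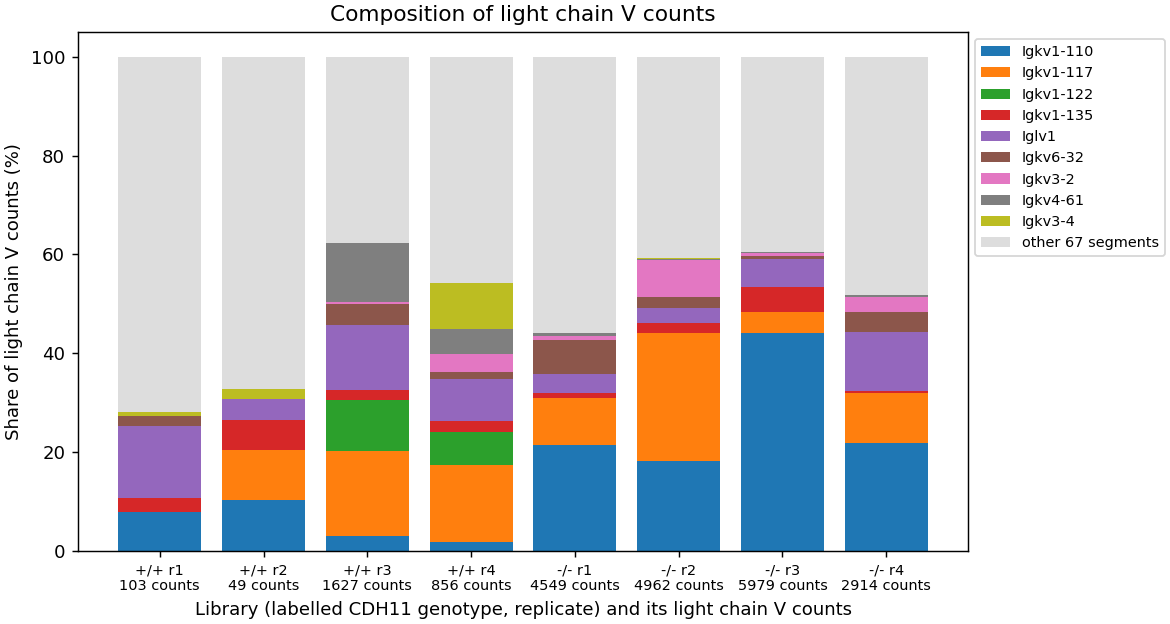
Share of the light chain V counts of each library held by 9 segments and by all the rest (grey), with the number of V counts under each bar. Igkv1-110 holds 18.2% to 44.0% in the libraries labelled CDH11-/- and 1.75% to 10.2% in those labelled CDH11+/+, and Igkv1-122 shows in CDH11+/+ replicates 3 and 4.

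Few segments ran the other way. The mean was higher under CDH11+/+ for 8 segments, which were Igkv4-61, Igkv1-122, Igkv3-4, Igkv8-28, Igkv8-19, Igkv3-5, Igkv4-90 and Igkv4-86, named after their values were seen. Igkv1-122 had counts of 0, 0, 168 and 57 under CDH11+/+ and 0, 2, 0 and 0 under CDH11-/-, which was 10.3% and 6.66% of the V counts in CDH11+/+ replicates 3 and 4. It is 93.6% identical to Igkv1-110, and with it and Igkv1-117 summed, the 3 stood at 0.738, 0.760, 39.2 and 15.8 CPM against 94.6, 141.4, 152.5 and 70.3 CPM. Igkv4-61 had counts of 0, 0, 195 and 44 against 29, 8, 5 and 10. Igkv3-4 had 80 of its 92 counts in CDH11+/+ replicate 4. Each of these 3 rested mainly on 1 or 2 libraries. Of the 8 segments, only Igkv4-61 passed the filter on low counts (-2.46 ± 1.54 on the log2 scale, adjusted p = 0.537 in the edgeR quasi-likelihood test), so the 0 segments called lower say nothing of the other 7.

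Another 8 segments had 0 counts in all 4 libraries labelled CDH11+/+, beside 0.298% of all genes with at least 10 counts, and 0 segments had 0 counts in all 4 labelled CDH11-/-. The 8 passed the minimum of 10 counts through the libraries labelled CDH11-/- alone. Those libraries held 87.5% of the V counts, so the minimum favours segments that are high there. The 8 were named after their values were seen. Igkv6-14 stood at 4.97, 0.711, 6.28 and 0 CPM under CDH11-/-. Its 204 counts pooled over those 4 libraries gave 3.26 CPM, at least 54.0-fold higher than the 0.0605 CPM that 3 counts pooled over the 4 libraries labelled CDH11+/+ would give. With the mean of the 4 library levels, 2.99 CPM, in place of the pooled level, the bound was 49.5-fold. For the other 7 the pooled bound lay between 3.44-fold (Igkv4-51, 2.90-fold by the mean) and 14.8-fold (Igkv4-71, 15.01-fold by the mean). Igkv4-71 shows how narrow such presence can be: it stood at 3.56 CPM in CDH11-/- replicate 2, at 0.0757 CPM in replicate 4 and at 0 in the other libraries.

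Segments held mainly by 1 library were common. In 34 of 76, more than 50% of the CPM summed over 8 libraries came from a single library, beside 1.70% of all genes with at least 10 counts. That library was CDH11-/- replicate 1, 2, 3 or 4 for 9, 8, 9 and 2 segments, and CDH11+/+ replicate 3 or 4 for 4 and 2 segments. Igkv17-127 stood at 14.0 CPM in CDH11-/- replicate 1 and at 0 to 1.97 CPM elsewhere. Igkv8-21 stood at 15.8 CPM in the same library and at 0 to 2.39 CPM elsewhere. Igkv5-39 and Igkv3-2 were examples in CDH11-/- replicate 2. Igkv17-127 and Igkv8-21 were named after their values were seen.

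By family, the 6 Igkv1 segments held 41.4% of the V counts, the 8 Igkv6 segments 11.1% and the 20 Igkv4 segments 10.1%. Igkv1 stood at 1.01, 0.988, 42.0 and 17.3 CPM against 97.9, 148.8, 169.7 and 72.2 CPM, with no overlap. Igkv6, in which all 8 segments had a higher mean under CDH11-/-, stood at 1.48, 0.456, 13.8 and 6.01 CPM against 61.2, 17.9, 21.9 and 34.0 CPM, also with no overlap. Igkv4, the largest family by members, stood at 0.461, 0.836, 24.6 and 12.1 CPM against 30.3, 22.6, 33.3 and 15.6 CPM, overlapping, and 17 of its 20 segments had a higher mean under CDH11-/-. Along the kappa locus, the 18 segments farthest from Igkc, Igkv1-110 and Igkv1-117 among them, gave 56.3% of the kappa counts, and the 19, 18 and 18 nearer ones gave 17.7%, 17.8% and 8.20%, from nearest to farthest. Segments on the plus strand, that of Igkc, gave 39.8%, 42.6%, 52.3% and 55.0% of kappa counts under CDH11+/+ and 51.9%, 65.9%, 69.4% and 59.2% under CDH11-/-, which overlapped.

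Neither light chain constant gene tested passed, though Igkc separated the labels. Igkc, to which every kappa V exon is spliced, stood at 18.1, 7.22, 210.2 and 112.0 CPM against 445.1, 460.8, 477.3 and 417.1 CPM. Its groups did not overlap, and its difference of 2.37 ± 0.97 (log2, SE) had an adjusted p of 0.347 (edgeR quasi-likelihood test). Iglc2, a lambda constant gene, stood at 0.923, 0.380, 3.80 and 6.40 CPM against 11.2, 4.59, 5.91 and 7.499 CPM, overlapping, with an adjusted p of 0.456. For each 100 Igkc counts there were 52.6, 51.6, 61.2 and 58.9 light chain V counts against 68.6, 69.6, 66.1 and 52.9, overlapping, so V and constant counts kept nearly the same proportion while both ranged widely. Of the 12 constant and joining genes listed, 7 were in the table and 2 were tested.

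Heavy chain V segments encode the variable part of the partner chain in the antibody. Their summed level was 21.01 ± 24.2 CPM under CDH11+/+ and 119.1 ± 26.2 CPM under CDH11-/- (SD, n = 4 each). Of 70 heavy chain V segments with at least 10 counts, 66 had a higher mean under CDH11-/-, beside 48.3% of all such genes. For 25 of the 70, all libraries labelled CDH11-/- lay above the rest, beside 3.28%. The edgeR test covered 21 and called 4 higher, beside 0.372% of all genes tested. The same minimum and filter lean these numbers toward higher values there. There were 246 ± 50.5 and 248 ± 33.6 light chain V counts per 100 heavy chain V counts under the 2 labels, a difference well within the spread. Of 8 heavy constant genes, 7 were tested, 0 passed by edgeR and 5 had a positive difference (1 at an unadjusted p under 0.05, 0 by DESeq2 and 1 by limma-voom). Igha, the constant gene of IgA, stood at 22.0, 9.72, 376.3 and 124.7 CPM against 686.0, 923.3, 915.4 and 718.2 CPM, with no overlap and an adjusted p of 0.355 (edgeR quasi-likelihood test). Ighg2b, an IgG constant gene, had a difference of 2.56 with an adjusted p of 0.259 by that test. Ighm, of IgM, stood at 65.8, 58.5, 57.7 and 143.0 CPM against 74.7, 88.5, 60.9 and 92.0 CPM, overlapping, with a difference of -0.04. Ighd, of IgD, differed by -0.11 and Ighg3, an IgG gene, by 0.16. Ighg1 and Ighg2c differed by 2.02 and 2.07. All but Igha and Ighg2b were named after their values were seen.

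Among plasma cell genes, edgeR called 0 of 13 tested, with 12 of 13 differences positive and a median log2 difference of 0.26. At an unadjusted p under 0.05 stood 6, and DESeq2 called 1 and limma-voom 3. The summed level of the 14 genes was 442 to 546 CPM under CDH11+/+ and 681 to 742 CPM under CDH11-/-, with no overlap. Without Jchain, the most different in level, the other 13 genes summed to 439 to 476 CPM against 466 to 496 CPM, which overlapped. Much of that sum came from Xbp1 (155.8 to 188.0 CPM over all libraries) and Sdc1 (44.2 to 64.3 CPM), named after their values were seen. Gene by gene, 5 of the 14 lay higher under CDH11-/- with no overlap, beside 3.28% of all genes with at least 10 counts. With no overlap, 0 of the 14 lay lower, beside 3.46%. Jchain, which links antibody units in IgA and IgM, stood at 5.07, 3.57, 94.3 and 44.0 CPM against 189.1, 241.1, 246.5 and 202.4 CPM, with an adjusted p of 0.306 (edgeR quasi-likelihood test). Pou2af1, a B lineage transcriptional coactivator, stood at 0.277, 0.228, 2.69 and 1.23 CPM against 5.04, 5.75, 7.13 and 4.32 CPM, with a difference of 2.31 ± 0.57 and an adjusted p of 0.130. Derl3, an endoplasmic reticulum protein of secretory cells, had a difference of 0.96 ± 0.26 and an adjusted p of 0.133. The part of such cells in the V segment differences was not tested.

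**Figure D5:**
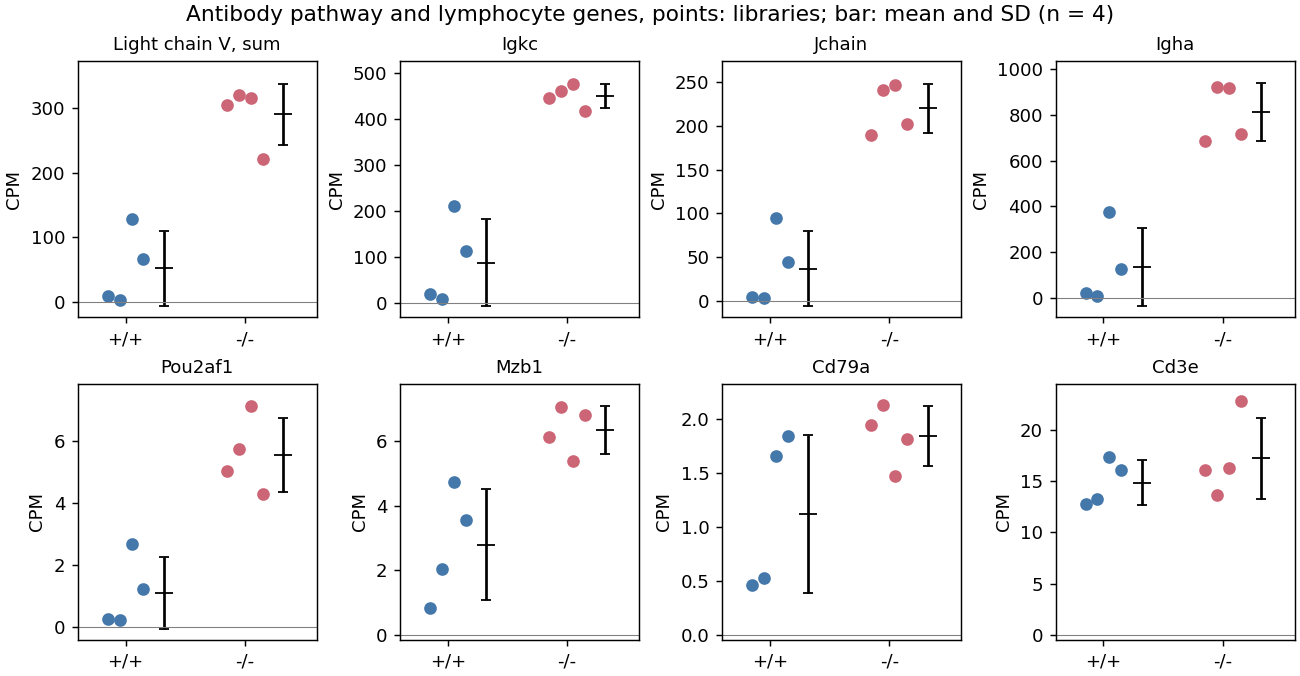
Level in CPM of the summed light chain V segments and of 7 antibody pathway and lymphocyte genes, each point a library and each bar the mean and SD of 4 libraries, by CDH11 label. Igkc, Jchain, Igha and Pou2af1 separate the labels as the V sum does, and so does Mzb1 of plasma cells, while the T cell gene Cd3e overlaps (Mzb1 and Cd3e chosen after their values were seen).

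B cell genes showed smaller differences. Of 14 genes, 9 were tested and edgeR, DESeq2 and limma-voom called 0, with 0 at an unadjusted p under 0.05, 7 of 9 differences positive and a median of 0.14. Their summed level was 57.1 to 68.6 CPM against 62.2 to 89.98 CPM, overlapping. Cd79a, a part of the B cell receptor, stood at 0.461, 0.532, 1.66 and 1.85 CPM against 1.95, 2.13, 1.48 and 1.82 CPM. Cd37 had a difference of 0.29 ± 0.14 (log2, SE) and an adjusted p of 0.396 (edgeR quasi-likelihood test), overlapping. The germinal centre list had 0 of 4 tested genes called by edgeR, DESeq2 or limma-voom, 2 of them at an unadjusted p under 0.05 (S1pr2 and Gcsam). The list of lymphoid stroma, which includes the chemokines Ccl19 and Ccl21a, had 0 of 4 called by the same tools and 0 at an unadjusted p under 0.05.

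Genes of V(D)J recombination, which assembles V segments in developing B cells, were at or near 0. Rag2 and Vpreb2 had 0 counts in all 8 libraries, and the 7 genes summed to 0.836 to 1.66 CPM against 0.738 to 1.23 CPM. Only Vpreb1 was tested, with a difference of -0.29 ± 0.36 (log2, SE) and an adjusted p of 0.771 (edgeR quasi-likelihood test). The T cell list had 0 of 10 called by the 3 tools, 2 at an unadjusted p under 0.05 (Cd5 and Lck), and a summed level of 137 to 171 CPM against 144 to 227 CPM. All 8 kidney genes were expressed, and edgeR called 0 of them. At an unadjusted p under 0.05 stood 5, beside 14.1% of all genes tested, and DESeq2 called 2 and limma-voom 3. The differences were positive for 2 of the 8 kidney genes, with a median of -0.17. With no overlap, 1 of the 8 lay lower and 1 higher, beside 3.46% and 3.28% of all genes with at least 10 counts. Slc34a1, a phosphate transporter of the proximal tubule named after its values were seen, stood at 792.2, 1735.5, 1016.1 and 1326.4 CPM against 740.0, 737.5, 779.9 and 545.5 CPM. It lay lower in all 4 libraries labelled CDH11-/-, with a difference of -0.80 ± 0.24 and an adjusted p of 0.206 (edgeR quasi-likelihood test). Whether the tubule genes and the V segments are linked was not tested. The kidney genes closest to the threshold were Nphs1 of podocytes (0.57, adjusted p = 0.0744) and Lrp2 of the proximal tubule (-0.73, adjusted p = 0.191) in the edgeR quasi-likelihood test.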

How the data were processed

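RNA was measured in 8 kidneys, 4 for each CDH11 label, from libraries made with a directional kit, per the labels' protocols. The labels number no replicates, so numbers here follow the order of the samples and pair nothing. What the authors deposited was 1 table of counts, in whole numbers for each Ensembl gene, and 1 of normalized values, a signal on the scale of counts. Per the submitters' processing notes, reads were handled with DRAGEN and DESeq2 on mm10. The annotation, the tool versions and the handling of reads shared between genes are not stated in those notes. Dividing each count by its normalized value gives a factor, and over 14733 genes that reached 10 counts in all 8 libraries, 33.1% of factors lay within 1% of their library's median, so they are not size factors alone. Over 241 values of light chain V segments with at least 10 counts, the factor was 0.778 to 1.20 times that median. Counts were analysed as deposited.

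Of 42256 identifiers, 42170 had a name, and the 86 others held 0.0484% to 0.0580% of a library's counts. There were 0 columns of other samples. The segments, gene lists and alternatives were chosen with earlier results of these data known, so no test was made of a sum, share or number over the segments. Each gene was tested by the quasi-likelihood method of edgeR 4.0.16 (R 4.3.3) with TMM scaling, its own filter on low counts and the label as sole term, adjusted by Benjamini-Hochberg over 15852 genes at a threshold of 0.05. The method was also run on simulated counts whose spread between libraries was set lower than that of most V segments tested. That run cannot show how the method performs on the V segments. DESeq2 1.42.0, limma-voom (limma 3.58.1), limma on the normalized values (log2 of the value plus 1), other scalings, no filter, a filter of 1 CPM in 4 libraries and leaving out each library were alternatives. Named in the text were the segments past the threshold, the 10 with most counts, the leader of each library, every Iglv segment, Igkc, Iglc2, Jchain and, from each list, the 2 genes whose p was smallest. Other names are said to have been chosen after their values were seen, or serve as a close relative or an example of a count. Each SE given with a log2 difference is the size of that difference divided by the square root of the edgeR F statistic. Sequence identity was computed with Biopython 1.88. Exact binomial intervals and the floor of 3 counts cover counting error only.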

Additional observations from a re-analysis of the deposited data

Results flagged for a closer look

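In 7 of 72 groups of 4 libraries looked at, the highest or lowest library lay far from the other 3, relative to the range of the group. Chance alone flags about 1 in 20 such groups if their values are normally distributed. Low counts are not, and a group with 3 libraries at 0 and 1 above 0 is always flagged. The 7 of 72 therefore cannot be set against that rate. The summed light chain V level of CDH11-/- replicate 4 was 220.7 CPM, below 305.5 to 320.8 CPM in the other libraries of its label. Under the CDH11+/+ label, replicate 3 stood out for Igkv6-32 (5.46 CPM against 0 to 0.925 CPM), for Igkv10-96 (1.19 CPM against 0.0760 to 0.154 CPM) and for Iglv2 (0.0791 CPM, which is 1 count, against 0). Replicate 4 of that label stood out for Iglv3 (1.31 CPM against 0). Under the CDH11-/- label, replicate 2 stood out for Igkv5-39 (23.1 CPM against 1.44 to 3.49 CPM) and for Igkv8-30 (11.4 CPM against 3.63 to 4.28 CPM).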

How the results depend on the processing

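The number of segments called was 3 under other scalings, under a filter of 1 CPM and among segments with at least 50 counts, and 4 with limma on the normalized values. It was 5 without the filter on low counts, which added Igkv1-88 and Igkv3-12, 21 with DESeq2 (14 of the 33 segments tested by edgeR and 7 others) and 9 with limma-voom, and the 3 called segments stayed among each of these. Leaving out 1 library gave 1 to 5. The count was 1 without CDH11+/+ replicate 2 or CDH11-/- replicate 1 (Igkv10-96 each time). It was also 1 without CDH11+/+ replicate 4 (Iglv3, none of the 3, which then had 0 counts under CDH11+/+). It was 5 without CDH11+/+ replicate 1. The cause of these shifts was not tested.

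The number of segments present per library averaged 14.5 under CDH11+/+ and 45.8 under CDH11-/- at a minimum of 10 counts, 29.5 and 60.5 at a minimum of 3 counts, and 21.9 and 20.1 at equal V counts, an alternative chosen after seeing the data. Leaving out 1 library gave 35.7 to 48.7 and 67.0 to 69.7 present, lambda shares of 9.31% to 12.8% and 4.81% to 7.86%, leading shares of 13.4% to 15.7% and 23.0% to 30.6%, and ratios of summed V levels of 4.27 to 11.0. The count of segments with no overlap between labels was 22 under other scalings and 22 to 32 when 1 library was left out, both chosen after seeing the data. Leaving out a library cannot lower this count, so its range shows no stability. For the genes named, 436 values kept their direction and side of the threshold, 18 newly passed and 10 no longer passed, and 0 reversed. Most of the 436 belonged to genes not called by the main test. All 10 losses fell on the 3 called segments, in 1 (Igkv10-96), 4 (Igkv6-15) and 5 (Igkv1-110) of 15 alternatives. Restricting to functional V genes left the same 76 segments. No paired analysis was possible because the labels give no replicate numbers. In the libraries with 49 and 103 V counts, presence and shares of single segments rest on a few counts.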
